A study of Mus musculus with 14 samples.

Results

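The miR-148/miR-152 family was followed in small extracellular vesicles, membrane-bound particles shed by cells, from cultured mouse neutrophils. The family comprises 3 hairpins, and its members were taken by name from the deposited table as both strands of each hairpin, miR-148a, miR-148b and miR-152. All 6 names were among the 1695 miRNA names counted, and 3 of them, the 3p strands, had enough counts to be tested. The neutrophils were Ly6G-positive cells of bone marrow from female wild-type BALB/c mice. In the 27HC group they were cultured for 48 h with 10 µM 27-hydroxycholesterol (27HC), and in the control group with DMSO, its solvent, for the same time. No allele or further agent is named in the labels for either group. Each group had 7 libraries. The labels do not say whether the libraries came from separate animals or cultures, so p-values measure the spread between these samples, which may be technical.

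A miRNA guides an Argonaute protein to messenger RNAs that pair with its seed, the stretch from base 2 to base 8, and this lowers the output of those messages. The guide strand of each miR-148/miR-152 hairpin is the 3p strand, and the 5p strand is usually discarded. Known targets of the guide strands include the DNA methyltransferases Dnmt1 and Dnmt3b, CaMKII alpha in activated dendritic cells, and, for miR-148a in liver, the low-density lipoprotein receptor and the cholesterol exporter ABCA1. 27HC is a product of cholesterol oxidation that binds liver X receptors and oestrogen receptors. The comparison asks whether the load of this family in the vesicles differed after 27HC.

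The mature sequences are shown because the 3 guide strands share their seed, so that on the seed alone they address the same sites. They were read from RefSeq (GRCm38.p6), written 5′ to 3′ with the seed in capitals.
mmu-miR-148a-3p: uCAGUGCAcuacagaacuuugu
mmu-miR-148b-3p: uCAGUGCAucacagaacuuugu
mmu-miR-152-3p: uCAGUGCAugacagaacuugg
mmu-miR-148a-5p: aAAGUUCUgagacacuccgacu
mmu-miR-148b-5p: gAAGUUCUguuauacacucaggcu
mmu-miR-152-5p: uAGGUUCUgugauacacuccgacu

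Among the 1679 mature mouse sequences of that RefSeq table, the seed CAGUGCA occurred in 3, which were the 3 guide strands of the family. Counted from the 5′ end with miR-148a-3p as the reference, miR-148b-3p differed by C9U and U10C and was equal at 20 of 22 positions. miR-152-3p differed from miR-148a-3p by C9U, U10G and U20G and was equal at 18 of 21 positions. The differences thus started right after the seed. The 5p strands of miR-148a and miR-148b shared the seed AAGUUCU with each other and with no other name, and miR-152-5p had A3G against miR-148a-5p inside the seed. No name of the deposited table outside the family had a family seed, among the 1431 table names that matched the RefSeq table.

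The miR-130/miR-301 guide strands carry the letters CAGUGCA as well, but as their first 7 bases, so that their seed is displaced by 1 base. They are shown, with those letters in capitals, because they were used as a comparison family.
mmu-miR-130a-3p: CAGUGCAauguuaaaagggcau
mmu-miR-130b-3p: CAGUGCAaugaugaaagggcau
mmu-miR-301a-3p: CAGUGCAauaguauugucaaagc

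The hairpins are given because the use of their strands is measured below. The first run of capitals is the 5p strand and the second run is the 3p strand, from RefSeq (GRCm38.p6).
Mir148a: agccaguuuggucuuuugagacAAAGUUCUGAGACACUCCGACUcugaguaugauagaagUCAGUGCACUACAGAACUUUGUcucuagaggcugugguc
Mir148b: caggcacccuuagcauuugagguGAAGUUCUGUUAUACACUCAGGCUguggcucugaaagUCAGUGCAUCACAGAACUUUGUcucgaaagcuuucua
Mir152: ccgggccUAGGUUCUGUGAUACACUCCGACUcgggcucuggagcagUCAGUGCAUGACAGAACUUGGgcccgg

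In the GRCm38 annotation, Mir148a lies at chr6:51269812-51269910 on the minus strand, between genes, and the nearest annotated gene is the long non-coding RNA Gm32479, 13622 bases away. Mir148b lies at chr15:103285125-103285221 on the plus strand, in an intron of Copz1. Mir152 lies at chr11:96850393-96850465 on the plus strand, in an intron of Copz2. Copz1 and Copz2 encode alternative zeta subunits of the COPI vesicle coat, and both are transcribed from the strand of their hairpin. Positions were taken from the annotation alone, as the count table gives none.

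Library totals ran from 112914 counts in DMSO replicate 5 to 871189 in DMSO replicate 3. Where a name had 0 counts, up to 3 counts could still be expected from counting error alone. In counts per library scaled to a common total (CPM), that limit was 3.44 in the deepest library and 26.6 in the shallowest. These limits use the library totals as counted, while the other CPM use TMM library sizes, which are explained below. Libraries numbered 1 to 4 and libraries numbered 5 to 7 are known to stand apart in these data in both groups. The labels name no batch for them, and values within each set are given beside the results. As a check of the labelled source, miR-223-3p, a defining miRNA of neutrophils, was at 142783 ± 40458 CPM with DMSO and 119314 ± 11586 CPM with 27HC (SD, n = 7 each). Of the 4 names in the neutrophil and myeloid list, miR-223-3p and miR-223-5p were not called. Their log2 fold changes were −0.26 and 0.17 (edgeR adjusted p = 0.406 and 0.388). The list also holds miR-142a-3p and miR-142a-5p, which are found across blood lineages and do not mark neutrophils alone. Both were called lower with 27HC, at −1.53 and −0.74 (edgeR adjusted p = 3.55e-05 and 0.0223). The marker lists of other cell types gave 1 lower call among 3 lymphoid names tested (miR-150-5p), and 0 calls among 2 erythroid and platelet, 3 liver and plasma, 4 endothelial and stromal and 3 epithelial names tested. The 2 erythroid and platelet names, miR-486a-5p and miR-486b-5p, had identical values, and the listed miR-451a and miR-144-3p were not tested. No listed marker was at 0 in every library. The summed level of the neutrophil and myeloid list ran from 83291 to 216664 CPM with DMSO and from 113054 to 149157 CPM with 27HC.

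The family was an abundant part of the vesicle miRNAs, and most of it was miR-148a-3p. Together the 6 names took up 2.22 ± 0.224% of a library with DMSO and 2.46 ± 0.157% with 27HC (SD, n = 7 each). The DMSO libraries spanned 1.87% to 2.54% and the 27HC libraries 2.33% to 2.75%, so the groups overlapped. These are shares of sequenced counts, and more vesicles of a kind cannot be told apart from more copies per vesicle. By mean CPM, miR-148a-3p ranked 6, miR-148b-3p 30 and miR-152-3p 121 of the 239 tested names.

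None of the 3 guide strands was called different between 27HC and DMSO by edgeR's quasi-likelihood test with Benjamini-Hochberg adjustment over all tested names. In the same fit 30 of 239 names, 12.6%, had an adjusted p under 0.05, with 9 higher after 27HC (3.77%) and 21 lower (8.79%). With upper-quartile scaling the split was 7 higher and 30 lower. The CPM of the treatment groups did not overlap for 13 names (5.44%), and did for all 3 guide strands. An unadjusted p under 0.05 was reached by 53 names and by no member of the family. All 3 fold changes were above 0, as were those of 121 of 239 names (50.6%). Their median was 0.18 on the log2 scale, beside a median of 0.010 over all tested names. The smallest change among the 30 called names was 0.31 on the log2 scale in either direction, larger than that of each guide strand.

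**Figure D1:**
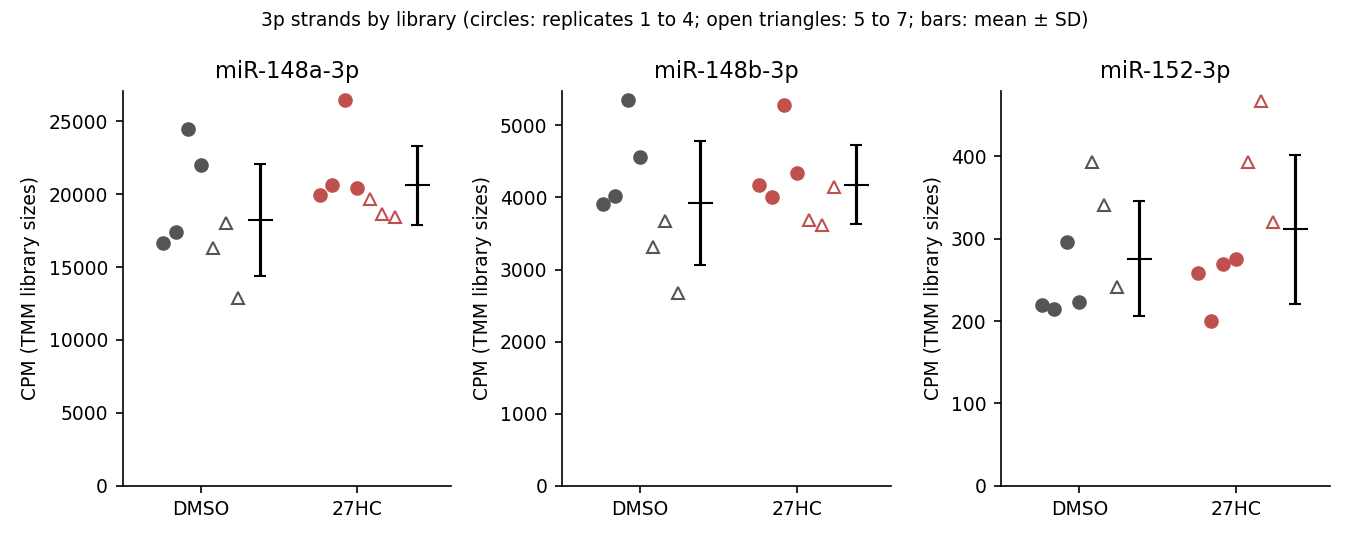
CPM (vertical axis, TMM library sizes, from 0) of the 3 guide strands in each DMSO and 27HC library, with circles for replicates 1 to 4, open triangles for replicates 5 to 7, and the mean ± SD over 7 libraries beside them. The groups overlap for every guide strand, and for miR-152-3p the triangles lie mostly above the circles.

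mmu-miR-148a-3p, the major guide strand, had 2034 to 17924 counts per library. In DMSO libraries its lowest, median and highest levels were 12852, 17411 and 24435 CPM, and in 27HC libraries they were 18410, 19959 and 26429 CPM. All 7 of the 27HC libraries lay above the DMSO median, 5 of the DMSO libraries lay below the lowest 27HC library, and the ranges overlapped because DMSO replicates 3 and 4 were high. The means were 18237 ± 3835 CPM with DMSO and 20596 ± 2706 CPM with 27HC (SD, n = 7 each). 27HC differed from DMSO by 0.18 on the log2 scale (SE 0.13, adjusted p = 0.493 by edgeR), with a 95% interval from −0.099 to 0.45, or 0.934-fold to 1.37-fold. Of all tested names, 63.2% had a fold change at least as far from 0.

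The CPM use TMM, which adjusts library sizes so that most names agree between libraries. As a share of each library's total, without that scaling, miR-148a-3p was less spread. It held 1.80 ± 0.188% of the counts with DMSO and 2.02 ± 0.134% with 27HC (SD, n = 7 each). The coefficient of variation between DMSO libraries was 10.4% for the share and 21.0% for the CPM, and between 27HC libraries it was 6.65% and 13.1%. The shares ran from 1.52% to 2.06% with DMSO and from 1.87% to 2.27% with 27HC, and 3 of 7 27HC libraries were above the highest DMSO library. With library totals in place of TMM, the log2 fold change was 0.16, with an unadjusted edgeR p of 0.0459 and an adjusted p of 0.199, and it did not pass the threshold.

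mmu-miR-148b-3p had 413 to 3925 counts per library. Its lowest, median and highest levels were 2669, 3904 and 5351 CPM with DMSO and 3619, 4141 and 5280 CPM with 27HC. The 27HC range lay inside the DMSO range, with DMSO replicate 3 the highest library and DMSO replicate 7 the lowest. The means were 3928 ± 863 CPM and 4177 ± 552 CPM (SD, n = 7 each). 27HC differed from DMSO by 0.088 on the log2 scale (SE 0.13, adjusted p = 0.818 by edgeR), with a 95% interval from −0.19 to 0.37, or 0.874-fold to 1.29-fold.

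mmu-miR-152-3p, the least abundant guide strand, had 39 to 217 counts per library. With DMSO its lowest, median and highest levels were 215, 241 and 393 CPM, and with 27HC they were 199, 275 and 467 CPM. The lowest and the highest of the 14 libraries were both 27HC libraries, replicates 2 and 6. The means were 276 ± 69.7 CPM and 312 ± 90.6 CPM (SD, n = 7 each). The log2 difference between the treatments was 0.18 (SE 0.21, adjusted p = 0.719 by edgeR), with a 95% interval from −0.27 to 0.62, or 0.830-fold to 1.54-fold. The interval was the widest of the 3.

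**Figure D2:**
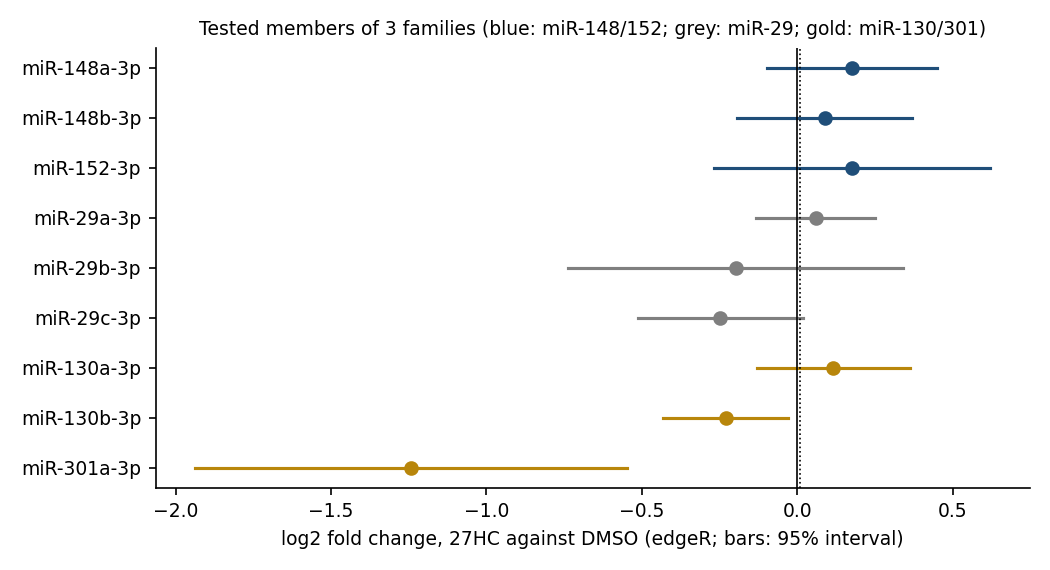
Log2 fold changes of 27HC against DMSO (horizontal axis) with 95% intervals from edgeR for the tested members of the miR-148/miR-152, miR-29 and miR-130/miR-301 families. The intervals of the 3 miR-148/miR-152 guide strands span 0, and the dotted line is the median of all 239 tested names (0.010).

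The other families were the miR-29 family, whose guide strands also target DNA methyltransferase messages, and the miR-130/miR-301 family described above. Of the miR-29 names 3 of 7 were tested and 0 were called, with log2 fold changes of 0.059 for miR-29a-3p, −0.20 for miR-29b-3p and −0.25 for miR-29c-3p and a median of −0.20. Of the miR-130/miR-301 names 3 of 8 were tested, with a median of −0.23. miR-301a-3p, named here after its value was seen, was called lower at −1.24 (edgeR adjusted p = 0.0193), while miR-130a-3p was at 0.12 and miR-130b-3p at −0.23, neither of them called. No difference between families was tested.

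The order of the guide strands was the same in all 14 libraries, with miR-148a-3p above miR-148b-3p above miR-152-3p. Each mature miRNA is a single short molecule, so counts were not divided by length, and how well each sequence is captured in a small RNA library was not measured here. Counts of miR-148a-3p were 4.27 to 5.34 times those of miR-148b-3p and 39.9 to 103.5 times those of miR-152-3p. Among the 3p counts of the family, miR-148a-3p made up 81.2 ± 0.711% with DMSO and 82.1 ± 0.890% with 27HC (SD, n = 7 each). miR-148b-3p made up 17.5 ± 0.912% and 16.7 ± 0.906%, and miR-152-3p made up 1.27 ± 0.412% and 1.27 ± 0.457%. The SD expected from counting alone was 0.526 and 0.562 percentage points for the miR-148b-3p share, and 0.167 and 0.179 for the miR-152-3p share. The spread of the miR-152-3p share includes a difference between sets of replicate numbers that is given below.

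A ratio of names within a library does not depend on how library sizes are scaled. The log2 ratio of miR-148b-3p to miR-148a-3p spanned −2.30 to −2.09 with DMSO and −2.42 to −2.15 with 27HC, so the groups overlapped, as they did for all but 16 (6.72%) of the 238 names set against miR-148a-3p. The means were −2.22 ± 0.086 and −2.30 ± 0.092 (SD, n = 7 each). The difference of −0.084 had an exact two-sided permutation p of 0.107, or 0.214 after Benjamini-Hochberg adjustment over the 2 ratios tested. Without 27HC replicate 7, which had the highest ratio of its group, the difference was −0.11 with an unadjusted exact permutation p of 0.0338. With any other single library left out, the unadjusted exact permutation p was 0.0816 to 0.206. Replicates 1 to 4 alone gave −0.13 (p = 0.0857 by the exact permutation test, which can reach 0.0286 there). Replicates 5 to 7 alone gave −0.024 (p = 0.8 by that exact test, which can reach 0.1).

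The log2 ratio of miR-152-3p to miR-148a-3p did not separate the treatments. It was −6.05 ± 0.451 with DMSO and −6.07 ± 0.507 with 27HC (SD, n = 7 each), a difference of −0.027 with an exact permutation p of 0.922, unchanged by the adjustment over 2 ratios. It differed instead with the replicate number. Over replicates 1 to 4 of both groups it ran from −6.68 to −6.21, and over replicates 5 to 7 from −5.83 to −5.31, so that the sets did not overlap. Counts of miR-148a-3p were 86.4 ± 11.7 times those of miR-152-3p in the 8 libraries of replicates 1 to 4 and 49.2 ± 7.0 times in the 6 libraries of replicates 5 to 7 (SD). This split was chosen with these data known and is described without a test. Library totals were mostly larger in replicates 1 to 4 (229324 to 871189 counts) than in replicates 5 to 7 (112914 to 252014). The part of depth in the difference between the sets was not tested. Of the 238 other tested names, 24 (10.1%) had ratios to miR-148a-3p that did not overlap between the sets.

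**Figure D3:**
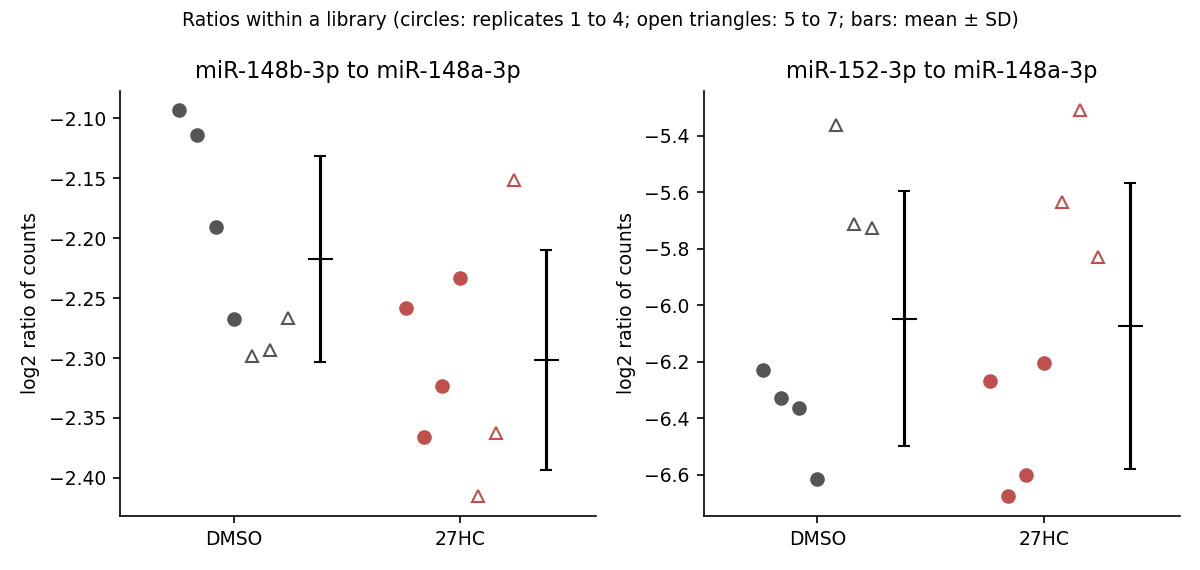
Log2 ratio of counts within each library (vertical axis, not from 0) for miR-148b-3p and miR-152-3p to miR-148a-3p, by treatment, with circles for replicates 1 to 4, open triangles for 5 to 7, and mean ± SD over 7 libraries. In the miR-152-3p panel the triangles lie above all circles in both treatments.

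The levels of the guide strands differed between the sets in opposite directions. From replicates 1 to 4 to replicates 5 to 7, the log2 difference in level was −0.28 (SE 0.11) for miR-148a-3p, −0.35 (SE 0.10) for miR-148b-3p and 0.54 (SE 0.16) for miR-152-3p. These values depend on the scaling. Pearson's r of log2 CPM with the log2 TMM factor was −0.90 for miR-148a-3p and −0.92 for miR-148b-3p over 14 libraries, a description. For miR-152-3p it was 0.28. CPM are counts divided by library sizes that contain this factor, so part of a negative r is built in. On shares of library totals, a scale added after the data were seen, the differences in mean log2 share were −0.10, −0.17 and 0.71. The miR-152-3p share ran from 0.0188% to 0.0278% in replicates 1 to 4 and from 0.0286% to 0.0480% in replicates 5 to 7. The sets thus did not overlap, as for 25 of the 239 tested names (10.5%). The libraries beside the gap, 27HC replicate 4 and DMSO replicate 7, had 87 and 72 counts. Their counting errors were 10.7% and 11.8%, and the gap lies within these errors. Among the fitted differences in level, values at least as far from 0 as that of miR-152-3p were found for 31.0% of the tested names, whose median distance from 0 was 0.36. In CPM, the levels of each guide strand overlapped between the sets, while those of 16 tested names (6.69%) did not. The summed level of the neutrophil and myeloid list, mostly miR-223-3p, was 116742 to 216664 CPM in replicates 1 to 4. In replicates 5 to 7 it was 83291 to 135673 CPM. In the same order of sets, the liver and plasma list ran from 2553 to 3942 CPM and from 3753 to 5170 CPM. The endothelial and stromal list ran from 979 to 2075 CPM and from 1257 to 2357 CPM. The lymphoid list ran from 1454 to 2131 CPM and from 1764 to 2287 CPM. The erythroid and platelet list ran from 1356 to 2105 CPM and from 946 to 2081 CPM. The epithelial list ran from 288 to 522 CPM and from 188 to 409 CPM. Every list thus overlapped between the sets. The part of these lists in the result was not tested.

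Within both sets the 27HC mean was above the DMSO mean for miR-148a-3p and miR-152-3p, and for miR-148b-3p it was so in replicates 5 to 7. In replicates 1 to 4, miR-148a-3p had mean levels of 20119 ± 3711 CPM with DMSO and 21861 ± 3059 CPM with 27HC (SD, n = 4 each), and in replicates 5 to 7 it had 15728 ± 2633 and 18909 ± 684 CPM (SD, n = 3 each). For miR-148b-3p the means were 4459 ± 660 and 4448 ± 571 CPM in replicates 1 to 4 and 3218.5 ± 509 and 3816 ± 284 CPM in replicates 5 to 7. For miR-152-3p they were 238 ± 38.4 and 250 ± 34.8 CPM, and 325 ± 77.0 and 393 ± 73.4 CPM. Between the sets, the log2 effect of 27HC differed by 0.15 for miR-148a-3p, 0.25 for miR-148b-3p and 0.22 for miR-152-3p (replicates 5 to 7 minus 1 to 4), with adjusted p of 0.846, 0.584 and 0.846 by edgeR's interaction test. That test called 0 of 239 names, and 24 had an unadjusted p under 0.05.

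The 5p strands were close to the limit of detection. The 3p strands made up at least 99.8% of the family's counts in every library. mmu-miR-148a-5p had 61 counts over all libraries against 76195 of miR-148a-3p, so that the 5p strand was 0.0800% of the hairpin's counts (exact 95% interval 0.0612% to 0.103%, counting error only). It was 32 of these counts, or 0.0720%, with DMSO (0.0492% to 0.102%) and 29 counts, or 0.0912%, with 27HC (0.0611% to 0.131%). These intervals pool the libraries of a group and leave out the spread between libraries, so they do not test the treatments. Within the 27HC group, the interval was 0.0906% to 0.278% in replicate 1 and 0% to 0.0571% in replicate 4. Without DMSO replicate 3, which held 20 of the 32 DMSO counts, the DMSO share was 0.0453% (12 counts, 0.0234% to 0.0791%). Without 27HC replicate 1, which held 14 of the 29 counts with 27HC, that share was 0.0642% (15 counts, 0.0360% to 0.106%). The highest counts of miR-148a-5p, 20 and 14, were in DMSO replicate 3 and 27HC replicate 1. These libraries had the most counts of miR-148a-3p in their groups. They also had the highest 5p shares of their groups, 0.111% and 0.166%. In 27HC replicate 4, with 6457 counts of miR-148a-3p, there were 0 counts of miR-148a-5p.

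mmu-miR-148b-5p had 12 counts against 16138 of its 3p strand, a share of 0.0743% (0.0384% to 0.130%), and was at 0 in 7 of 14 libraries. mmu-miR-152-5p had 3 counts against 1042, a share of 0.287% (0.0592% to 0.837%), and was at 0 in 11 of 14 libraries. None of the 5p strands passed the filter on low counts. A difference between treatments in them was not detectable at this depth.

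**Figure D4:**
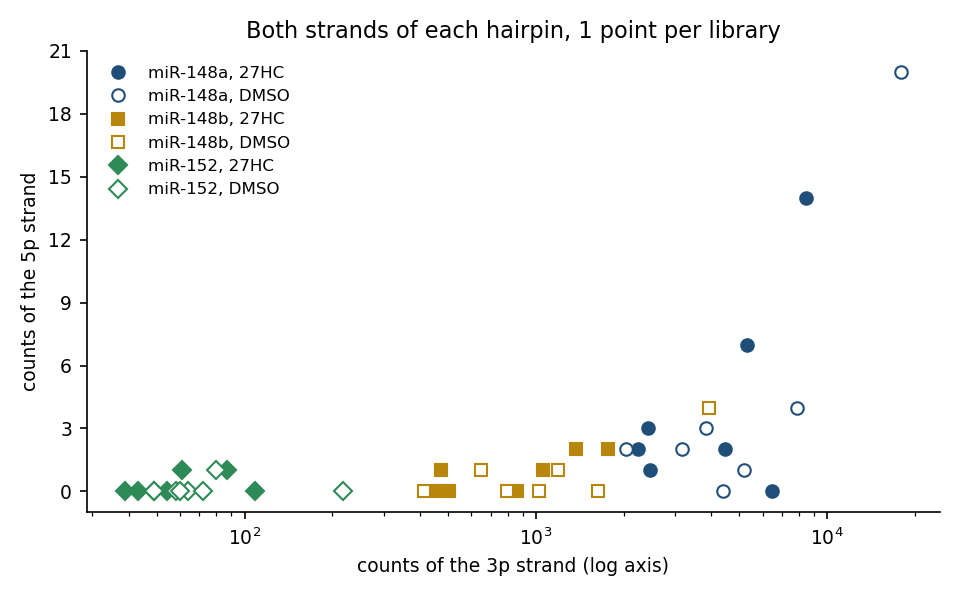
Counts of the 5p strand (vertical axis) against counts of the 3p strand of the same hairpin (horizontal log axis), 1 point per library, filled for 27HC and open for DMSO. No library has more than 20 counts of a 5p strand, while 3p counts reach 17924.

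The names next to each guide strand in level place it among the vesicle miRNAs. miR-148a-3p stood between miR-93-5p (mean 30314 CPM) and miR-23a-3p (16151 CPM). miR-148b-3p, at a mean of 4052 CPM, stood between miR-425-5p (4100 CPM) and miR-484 (3716 CPM) over all 14 libraries. With 27HC alone the order was the reverse, with miR-484 at 4354 ± 874 CPM, miR-148b-3p at 4177 ± 552 CPM and miR-425-5p at 4154 ± 800 CPM, which differed by less than their SDs. miR-484 was called higher with 27HC (log2 fold change 0.50, edgeR adjusted p = 0.0216). miR-152-3p, at a mean of 294 CPM, stood between miR-129-2-3p (302 CPM) and miR-6946-3p (288 CPM) over all 14 libraries. With DMSO alone the order was the same, with miR-129-2-3p at 529 ± 361 CPM and miR-6946-3p at 229 ± 122 CPM. With 27HC alone the order was the reverse, with these names at 74.8 ± 11.8 CPM and 348 ± 158 CPM. miR-129-2-3p was called lower with 27HC, at −2.83 (edgeR adjusted p = 0.000108).

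Likeness of levels was described by Pearson's r of log2 CPM over the 14 libraries, which share their library and its scaling factor with every name. miR-148a-3p and miR-148b-3p were alike at r = 0.93 (Spearman's rho 0.82), with 0.91 in the 8 libraries of replicates 1 to 4 and 0.92 in the 6 of replicates 5 to 7. On shares of library totals, r was 0.79. For both, the most alike names outside the family were miR-16-5p (r = 0.96 with miR-148a-3p and 0.95 with miR-148b-3p), miR-185-5p (0.83 and 0.87) and miR-29a-3p (0.76 and 0.87). On shares of library totals these became 0.88 and 0.84 for miR-16-5p, 0.62 and 0.72 for miR-185-5p, and 0.18 and 0.40 for miR-29a-3p. The likeness to miR-29a-3p was thus lower on shares than on scaled levels. miR-16-5p was the most abundant name of the table, at a mean of 404652 CPM.

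miR-152-3p stood apart from the other guide strands over all libraries, with r of −0.03 to miR-148a-3p and −0.20 to miR-148b-3p. Within replicates 1 to 4, r was 0.60 and 0.75, and within replicates 5 to 7 it was 0.76 and 0.55. The names most alike to it were miR-181b-5p (r = 0.77, and 0.36 and 0.37 within the sets) and miR-199a-3p and miR-199b-3p, whose counts were identical (0.74, and 0.79 and 0.080 within the sets). The median r of all other names to a guide strand was −0.018 for miR-148a-3p, 0.038 for miR-148b-3p and −0.062 for miR-152-3p.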

How the data were processed

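The unit was the count: whole-number counts per mature miRNA and library, deposited by the authors for 1695 names and 14 libraries, all matched to a label. Per the labels' protocols, total RNA of vesicles isolated with a commercial kit was made into QIAseq miRNA libraries. Per the submitters' processing notes, GRCm39 (mm39), R 4.1.2, edgeR and limma were used, with no roles stated. The aligner, the rule for reads matching several names and the use of molecular identifiers are not given in the sources used here.

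The deposited counts were fitted with edgeR 4.0.16 in R 4.3.3 (TMM, filterByExpr with a minimum count of 10 and total of 15, quasi-likelihood test, treatment only, Benjamini-Hochberg threshold 0.05). This left 239 names with 99.4% of the counts. CPM use TMM library sizes, and likeness adds a prior count of 2. Ratios added 0.5 to each count and were tested over all 3432 splits into 7 and 7. On simulated counts, 40 of 40 tested names changed 4-fold and 1 of 28 changed 1.5-fold were called. In the 4-fold run 3 unchanged names were called too. All simulated names had the same dispersion and changed names were drawn at all levels, so the power for a single guide strand is not given.

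The names described are the 6 members, their neighbours in mean CPM, the 3 names most alike to each guide strand and any name sharing a seed. The members and lists were chosen with earlier results of these data known. Alternatives were scaling, filter, tool (DESeq2 1.42.0, limma-voom 3.58.1), covariates, sets of replicates and each library left out.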

Additional observations from a re-analysis of the deposited data

Results flagged for a closer look

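A single library lay far from the other 6 of its group in 4 of the 26 groups of 7 values examined. Chance gives about 1.3 for continuous values, which does not hold for names at 0 or 1 count. No excess over chance is therefore read from these flags. miR-148a-3p in 27HC replicate 3 was at 26429 CPM, with the next 27HC library at 20644 CPM. That library had a TMM factor of 0.862, the lowest of its group. The total of DMSO replicate 3, 871189 counts, was far above the next DMSO library at 400585. miR-152-5p in DMSO replicate 4 was at 2.78 CPM with all other DMSO libraries at 0, and in 27HC replicate 6 it was at 7.65 CPM with the next at 3.16 CPM. Both of these values of miR-152-5p are 1 count.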

How the results depend on the processing

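No alternative brought a guide strand past the threshold. miR-148a-3p was above 0 in all 28 alternatives, at 0.057 to 0.28 on the log2 scale (lowest adjusted p 0.0889 by edgeR, with a mean count of at least 100 required), and at 0.12 to 0.32 with each library left out. Its unadjusted edgeR p was 0.0250 with that filter, 0.0297 with the library total as covariate and 0.0475 with the replicate block. It was 0.0459 with library totals alone, 0.0178 without DMSO replicate 3 and 0.0495 without DMSO replicate 4. In every other alternative the unadjusted p of miR-148a-3p was above 0.05. miR-152-3p was above 0 in all 27 alternatives, at 0.047 to 0.30, and at 0.10 to 0.34 with each library left out. It had no value where a mean count of at least 100 was required. miR-148b-3p ran up to 0.25, and was at 0.034 to 0.24 with each library left out. With no filter on low counts it turned to −0.036 (edgeR adjusted p = 0.955), where the median of all names was −0.19. The 5p strands were tested only without the filter, at 0.46, 0.44 and 0.95 for miR-148a-5p, miR-148b-5p and miR-152-5p (edgeR adjusted p = 0.790, 0.933 and 0.719).

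The number of called names was 12 of 198 tested in replicates 5 to 7 alone, with fewer samples and fewer names tested. It was 42 of 242 in replicates 1 to 4 alone, and 21 to 34 with each library left out.

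The log2 ratio of miR-148b-3p to miR-148a-3p was −0.11 to −0.063 with each library left out. The lowest value, −0.11 without 27HC replicate 7, had an unadjusted exact permutation p of 0.0338, and the other removals gave 0.0816 to 0.206 by that test. The ratio of miR-152-3p to miR-148a-3p changed sign in replicates 5 to 7 alone, to 0.0089, and when DMSO replicate 5, 6 or 7 or 27HC replicate 1, 2 or 3 was left out, with −0.15 to 0.087 over all libraries left out. The cause was not tested.

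Each library description carries 2 consecutive numbers, which recur for the same replicate number in both groups, and what they mark is not stated. The labels do not say that equal replicate numbers share an animal or a day, so the numbers were not taken as pairs. The deviations of same-numbered libraries from their group means correlated at over 0.1 in 6 of 7 pairs (0.069 to 0.60), short of every pair. Taken from the means within the sets of replicates, they correlated at −0.11 to 0.29, with 2 of 7 pairs over 0.1. Of the 7 numbers, 3 correlated best with their own. With the replicate number as a block, 37 names were called, and the log2 fold changes were 0.19, 0.11 and 0.16 for miR-148a-3p, miR-148b-3p and miR-152-3p (edgeR adjusted p = 0.183, 0.495 and 0.50).

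Depth limits the 5p strands most, since a count of 0 allows up to 26.6 CPM, on the scale of library totals, in the shallowest library.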
